A study of Mus musculus with 16 samples.

Results

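The growth genes Myc and Ccnd1 were examined through the H3K27Ac peaks called around them in mouse liver. A window of 60 kb was laid over each gene in the coordinates of build mm9, chr15:61790001-61850000 for Myc and chr7:152090001-152150000 for Ccnd1, and every peak that touched a window was kept. The rule uses position and no measured value, but the genes and windows were picked with earlier results of these data known. They held 70 of the 500869 peaks of the 15 animals, 36 around Myc and 34 around Ccnd1. When overlapping peaks of all animals were joined, these became 6 of 56941 merged regions, 4 around Myc and 2 around Ccnd1.

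H3K27Ac is acetylation of lysine 27 on histone H3, and it was mapped by ChIP-seq in 5 WT livers, 5 inflamed Mdr2-/- livers and 5 HCC (hepatocellular carcinoma) nodules, 1 library per animal. By the sample labels, WT mice were FVB.129P2 with intact Mdr2, aged 14 to 19 months. Inflamed livers came from FVB.129P2-Abcb4tm1Bor/J mice, the Mdr2 knockout, aged 7 to 8 months, and nodules came from the same knockout strain aged 14 to 19 months. All 15 animals had received clodronate liposomes, 50 μg per g of body weight, 48 h before the tissue was taken, which depletes macrophages. The knockout affects every cell of the animal, and the nodules and inflamed livers share it. The study's text differs from these labels: it names the WT strain FVB/NJ, calls the WT mice age matched, gives narrower ages for the Mdr2-/- mice and states another amount of clodronate. Nodules come from older animals than inflamed livers in both sources, so age cannot be told apart from disease stage between them. By the labels WT mice were also older than inflamed mice, and the strain of WT mice may differ from the knockout, so age and strain cannot be told apart from genotype there. The tissue was taken whole, and more acetylated cells of a type cannot be told apart from more acetylation per cell. Marker genes of hepatocytes and macrophages were not checked, since no annotation of mm9 was used here.

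Each animal has 1 list of peaks, with the position of each peak and the score of the peak caller. Depth is unknown, because read counts were not among the values used here. Lists were longer in inflamed livers, 38368 ± 1801 peaks (SD, n = 5), than in WT livers, 28292 ± 1435 (SD, n = 5), and nodules varied most, 33514 ± 7060 (SD, n = 5). The length of genome under peaks was 128 ± 15.6 Mb in WT livers, 147 ± 9.40 Mb in inflamed livers and 144 ± 32.8 Mb in nodules (SD, n = 5 each). Values from lists shortened to their best 26375 peaks, or to their better-scoring 50%, are given where they change a result. Shortening removes weak peaks and cannot change the width of a strong one, so the part of list length or depth in peak widths was not tested. Nodules were the least alike: by the base-pair Jaccard index, the share of the joint peak length that 2 animals have in common, each of the 5 nodules was nearest to an animal of another group. HCC 124711 had the lowest mean index with its own group, 0.411 where the other nodules had 0.482 to 0.539, and WT 130748 had 0.504 where the other WT livers had 0.665 to 0.705. These 2 libraries were each other's nearest, with an index of 0.630. Comparisons are therefore also given without them where a call rests on them.

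Myc encodes a transcription factor that drives genes of ribosome production, metabolism and the cell cycle, and its transcript rises early when the liver regenerates. Ccnd1 encodes cyclin D1, which binds the kinases CDK4 and CDK6 and carries cells through G1 towards DNA synthesis. H3K27Ac marks active promoters and enhancers, and stretches of it that run over a gene often accompany high transcription. Next to Myc lies the non-coding RNA gene Pvt1, on its side of higher coordinates, and next to Ccnd1 lies LTO1, on its side of lower coordinates (gene order from RefSeq).

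Around Myc, every one of the 15 animals carried a peak that reached to or near the centre of the window, called the central peak here. In inflamed livers this peak reached about 1.3 kb further towards Pvt1 than in WT livers. Most inflamed livers and most nodules had weaker peaks further out on the same side that nearly all WT livers lacked. Around Ccnd1, every animal had the same 2 acetylated regions, and the length under peaks differed little between group means. In 2 nodules the broad Ccnd1 region was split into 2 peaks.

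**Figure D1:**
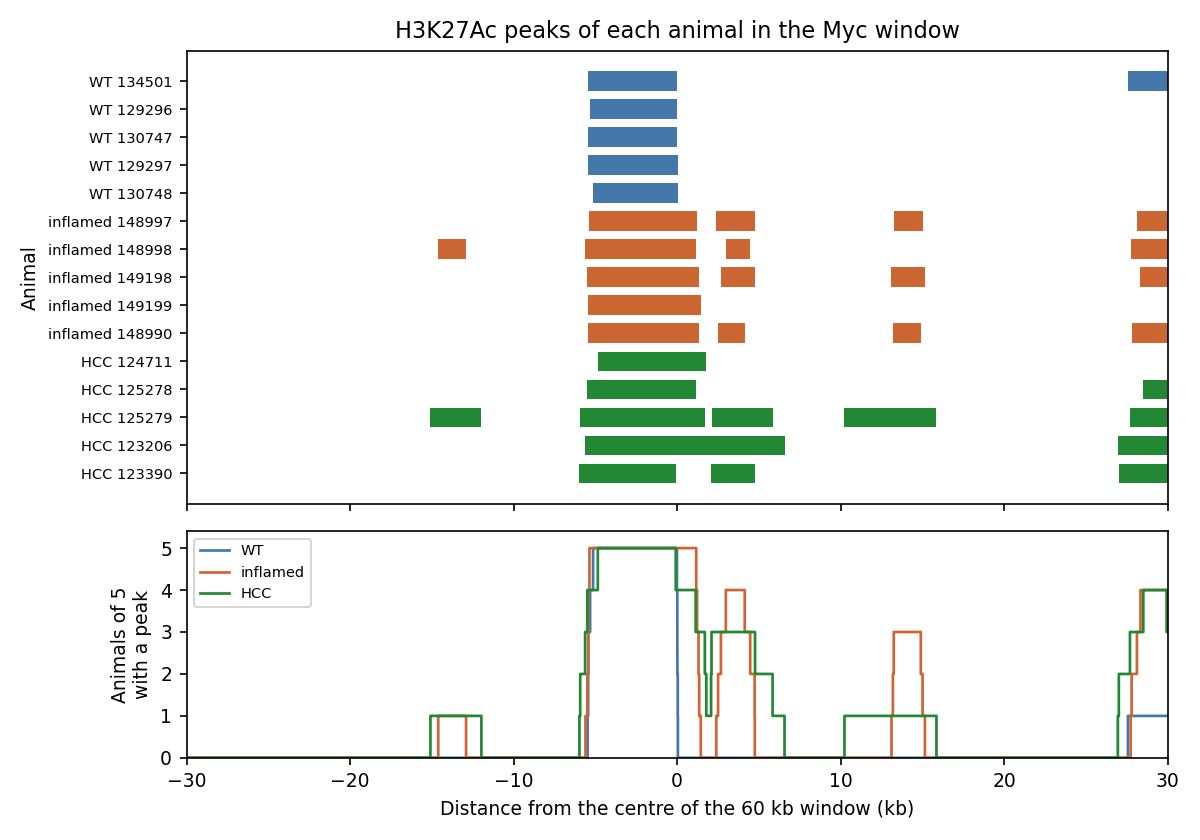
H3K27Ac peaks of each animal in the Myc window (x axis, distance from the window centre in kb, higher coordinates to the right; each bar is 1 peak) and, below, how many of the 5 animals of each group had a peak at each position. The central peak is present in all 15 animals and extends further right in the 5 inflamed livers than in any WT liver, and peaks to its right are frequent in inflamed livers and nodules.

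The central Myc peak was the longest peak of the window in every animal. In WT livers it spanned 5486 bp in 134501, 5310 bp in 129296, 5457 bp in 130747, 5471 bp in 129297 and 5187 bp in 130748. In inflamed livers it spanned 6586 bp in 148997, 6773 bp in 148998, 6837 bp in 149198, 6883 bp in 149199 and 6748 bp in 148990. The shortest inflamed peak thus exceeded the longest WT peak by 1100 bp, and each group kept to a narrow range. In nodules it spanned 6634 bp in 124711, 6629 bp in 125278, 7622 bp in 125279, 12194 bp in 123206 and 5891 bp in 123390, a far wider spread that also stayed above every WT liver. The nodule 123206 held the longest, a single peak that covered both the central stretch and the one beside it.

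On average the central Myc peak measured 5382 ± 130 bp in the WT group, 6765 ± 113 bp in the inflamed group and 7794 ± 2535 bp in nodules (SD, n = 5 each). The inflamed peak was 1383 bp longer than the WT peak, 1.26-fold (p = 0.00794 by a two-sided exact permutation test, which with 5 animals against 5 can give no smaller value). Such a separation in this direction was not common: of the merged regions with a peak in all 10 animals of these groups, 4.34% had a longest peak that was longer in every inflamed than in every WT liver, and 8.19% had one that was shorter. The nodule peak was 2412 bp longer than the WT peak, 1.45-fold (exact permutation test, two-sided, p = 0.00794), and 0.714% of the regions with a peak in all 10 animals separated these groups in that direction and 1.12% in the other. Nodules and inflamed livers overlapped, and their difference of 1029 bp did not exceed the spread between animals (exact permutation test, two-sided, p = 0.659). Without the nodule 123206 the difference between nodules and WT livers was 1312 bp (exact permutation test, two-sided, p = 0.0159). Without WT 130748 and HCC 124711 the inflamed peak was longer than the WT peak by 1334 bp (exact permutation test, two-sided, p = 0.0159) and the nodule peak by 2653 bp (exact permutation test, two-sided, p = 0.0286).

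**Figure D2:**
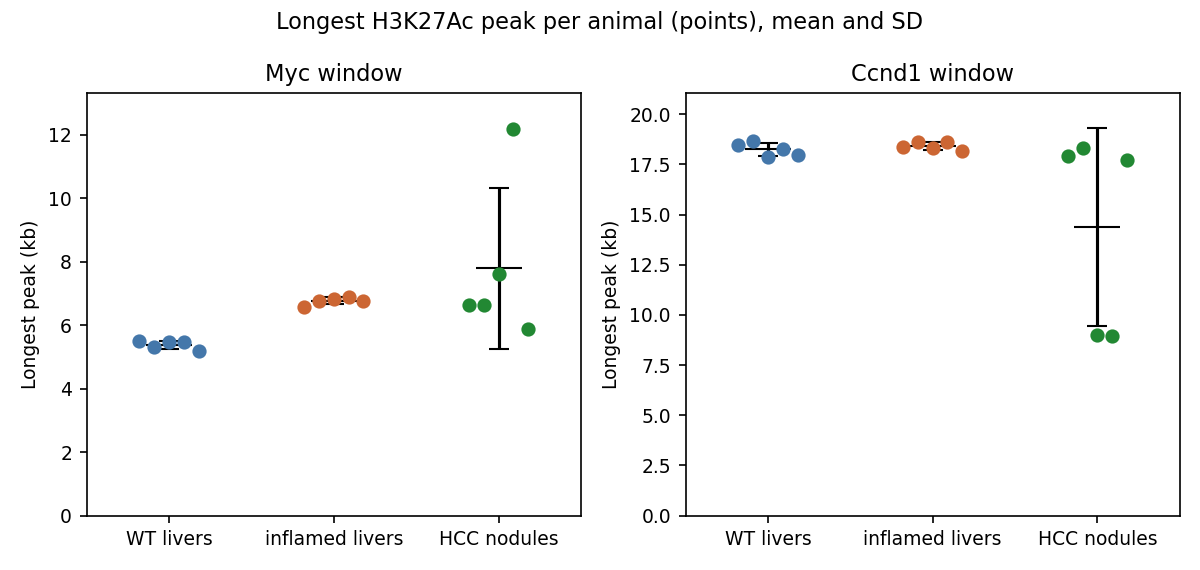
Length of the longest uninterrupted stretch under H3K27Ac peaks in each window (y axis, kb), 1 point per animal, with mean and SD per group. In the Myc window all inflamed livers and nodules lie above all WT livers, and in the Ccnd1 window 2 nodules lie near 9 kb while the other 13 animals lie near 18 kb.

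The plot of longest stretches shows the separation for Myc, and the positions of the peak ends show on which side the peaks differed. This measure was chosen after the peak positions were seen. The right end of the central Myc peak fell between positions 61819986 and 61820043 of chromosome 15 in the 5 WT livers, within 57 bp of each other. In the 5 inflamed livers it fell between 61821166 and 61821443, within 277 bp. The right ends were therefore tightly placed in each group, with 1123 bp between the groups and a mean difference of 1280 bp (exact permutation test, two-sided, p = 0.00794). The left ends differed by -104 bp on average (exact permutation test, two-sided, p = 0.183), and the groups overlapped there. In nodules the right end lay at 61821781 in 124711, 61821130 in 125278, 61821692 in 125279, 61826565 in 123206 and 61819914 in 123390. Of these, 4 were beyond every WT liver, and 123390 ended short of them while its left end, at 61814024, was the lowest of all 15 animals. The mean right end of nodules was 2200 bp beyond that of WT livers (exact permutation test, two-sided, p = 0.0476) and 920 bp beyond that of inflamed livers (exact permutation test, two-sided, p = 0.603). The call against WT livers did not hold without WT 130748 and HCC 124711, 2315 bp (exact permutation test, two-sided, p = 0.143), and without the nodule 123206 the difference was 1112 bp (exact permutation test, two-sided, p = 0.0952). Of the single animals, leaving out the nodule 123390, the one that ended short, was the one case in which the call passed. The left ends of nodules lay at 61815148 in 124711, 61814502 in 125278, 61814071 in 125279, 61814372 in 123206 and 61814024 in 123390, and all but that of 124711 lay beyond the lowest WT left end, 61814522. Their mean differed by -212 bp from WT livers (exact permutation test, two-sided, p = 0.325), and by -393 bp without HCC 124711 (exact permutation test, two-sided, p = 0.0159). The peak of the nodule 123390 thus exceeded the WT peaks through its left side. Over all 5 nodules the left-end difference from WT livers did not pass. For inflamed against WT livers the right-end difference without WT 130748 and HCC 124711 was 1286 bp (exact permutation test, two-sided, p = 0.0159).

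Base by base, chr15:61820044-61821166 was covered in each of the 5 inflamed livers and bare in every WT liver. These 1123 bp directly adjoin the right end of the WT peak. They are the gap between the right ends given above. The longest peak, its right end and these bases thus largely describe the same difference and are not separate results. Genome-wide, 4.36% of the base pairs under a peak in any of these 10 animals had that pattern. No base of the Myc window had the reverse pattern, which 0.929% of these base pairs had. In nodules, 1087 bp of the same stretch, chr15:61820044-61821130, were under a peak in 4 of 5 animals, the exception being 123390. How common bases in 4 of 5 nodules and no WT liver were genome-wide was not computed. The core that lay under a peak in all 15 animals measured 4767 bp, and 24335 bp of the window lay under a peak in at least 1 animal.

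To the right of the central peak, chr15:61822101-61824762 lay under peaks in several animals, its centre 3.43 kb from the centre of the window. No WT liver had a peak there. Among inflamed livers 148997, 148998, 149198 and 148990 had one and 149199 had none. Among nodules 125279, 123206 and 123390 had one, in 123206 as the extension of the central peak, and 124711 and 125278 had none. The gap that separated this peak from the central one ranged from 408 bp in the nodule 125279 to 2160 bp in the nodule 123390, and from 1171 to 1809 bp in inflamed livers. Stretches of this kind, under peaks in at least 3 of the 15 animals, were defined after the positions were seen. How common they were genome-wide was not computed.

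Further out, chr15:61833192-61835006 was under a peak in no WT liver, in the inflamed livers 148997, 149198 and 148990, and in the nodule 125279. At the right end of the window, chr15:61847564-61850000 was under a peak in 1 WT liver, 134501, in 4 inflamed livers, all but 149199, and in 4 nodules, all but 124711. A peak in at least 4 animals of one group and at most 1 WT liver was found in 15.9% of merged regions for inflamed livers and in 3.30% for nodules, and this was the single merged region of the Myc window with that pattern. The stretch 3.43 kb from the centre, with a peak in 4 inflamed livers and no WT liver, was not counted apart. The long peak of the nodule 123206 joined it to the central region. Most peaks at the right end of the window continued past it. The inflamed liver 149199 thus had the central peak alone and none of the outer ones, as did 4 of the 5 WT livers and the nodule 124711. To the left of the central peak, chr15:61804911-61808027 held a peak in the inflamed liver 148998 and in the nodule 125279 alone. The nodule 125279 was the single animal with a peak in each of these stretches.

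Scores ranked the peaks within each list. In every list many peaks were tied at 3100 and under 1% scored higher. The central Myc peak had a score of 3100 in all 15 animals, and between 74.8% and 89.9% of the peaks of the same list scored lower. The outer peaks of inflamed livers scored lower. For the stretch 3.43 kb from the centre, 12.6% of the list scored lower in 148997, 16.0% in 148998, 13.4% in 149198 and 7.42% in 148990. In the nodules 125279 and 123390 the peak at this stretch had 68.5% and 38.1% of the list below it. Lists differ in length, which moves such shares. Counted as the number of peaks with a higher score, the peak at this stretch had 13478 above it in 125279 and 17790 in 123390, and between 32077 and 35407 in the inflamed livers, so its rank was also higher in these nodules by number. For the stretch 14.1 kb from the centre the shares in inflamed livers were 0.966%, 3.41% and 5.70%, and in the nodule 125279 it was 52.7%. At the right end of the window, 41.8% of the list scored lower in the WT liver 134501, between 23.5% and 36.4% in the 4 inflamed livers, 14.2% in the nodule 125278, 83.1% in 125279, 78.2% in 123206 and 83.2% in 123390. By number, 15340 peaks scored higher in the WT liver, between 22816 and 30533 in inflamed livers, 33704 in the nodule 125278, and 7227, 6552 and 4824 in 125279, 123206 and 123390. In 3 of the 4 nodules with a peak at that end, the rank was above that of all inflamed livers on both scales. These ranks are a description and were not tested.

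**Figure D3:**
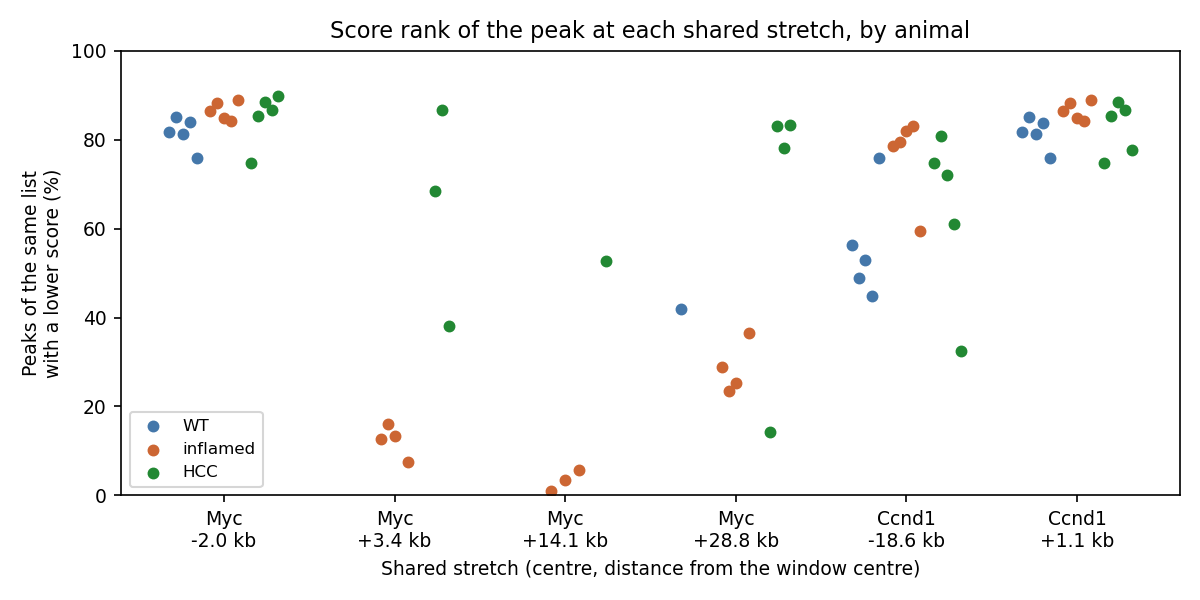
Share of peaks of the same list with a lower score (y axis, %) for the strongest peak at each stretch shared by at least 3 animals in the Myc and Ccnd1 windows (x axis, centre of the stretch as distance from the window centre), 1 point per animal with a peak there; the nodule 123206 is shown at the 3.43 kb stretch with the rank of its joined peak. The central Myc peak ranks high in all animals, and the outer Myc peaks rank lower in inflamed livers than in several nodules; lists differ in length, from 26375 to 42736 peaks.

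The total length under peaks in the Myc window adds the central and outer peaks. It was 7923, 5310, 5457, 5471 and 5187 bp in the WT livers 134501, 129296, 130747, 129297 and 130748. It was 12588, 12230, 12614, 6883 and 12297 bp in the inflamed livers 148997, 148998, 149198, 149199 and 148990. Except for 149199, inflamed livers lay above 12 kb, and 149199, without outer peaks, lay below the WT liver 134501, so the groups overlapped. In the nodules 124711, 125278, 125279, 123206 and 123390 it was 6634, 8054, 22410, 15245 and 11570 bp. Nodules ranged from the WT range to the highest value of all animals.

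**Figure D4:**
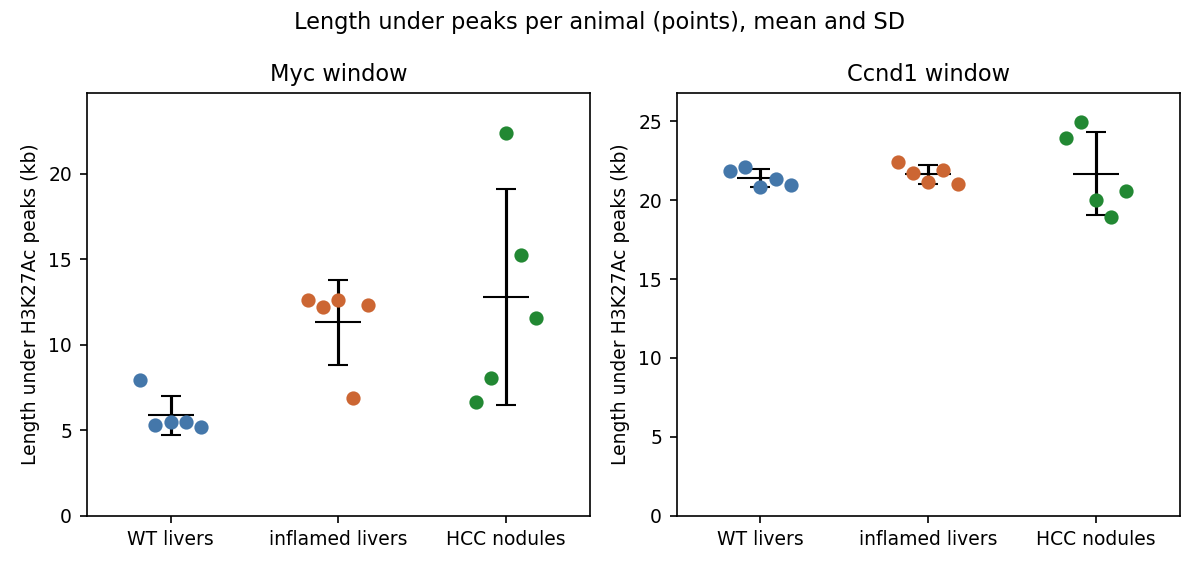
Length under H3K27Ac peaks in each 60 kb window (y axis, kb), 1 point per animal, with mean and SD per group. In the Myc window inflamed livers and nodules reach higher than WT livers with overlap, and in the Ccnd1 window the 3 group means lie close together with the widest spread in nodules.

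The group means of the Myc window were 5870 ± 1154 bp for WT, 11322 ± 2488 bp for inflamed livers and 12783 ± 6332 bp in nodules (SD, n = 5 each). Inflamed livers exceeded WT livers by 5453 bp, 1.93-fold (exact permutation test, two-sided, p = 0.0159). The adjusted p over the windows and all 60 kb tiles of the genome was 0.0632 (exact permutation tests, Benjamini-Hochberg). Of all tiles, 27.9% were higher in inflamed livers by the same unadjusted test, so a difference of this kind was common in the genome. With lists of equal length it was 1338 bp (exact permutation test, two-sided, p = 0.0556), which does not pass. With the better-scoring 50% of each list, which in WT and inflamed livers leaves the central peak alone, it was 1383 bp (exact permutation test, two-sided, p = 0.00794). Per Mb of genome under peaks it was 30.4 bp (exact permutation test, two-sided, p = 0.0159), and as percentile among the tiles of the same animal 11.2 points (exact permutation test, two-sided, p = 0.0317). Nodules exceeded WT livers by 6913 bp, 2.18-fold (exact permutation test, two-sided, p = 0.0159, adjusted p = 0.394), where 6.45% of tiles were higher by this test, and by 6628 bp with equal lists (exact permutation test, two-sided, p = 0.0397). Without the nodule 125279 that difference was 4506 bp (exact permutation test, two-sided, p = 0.0317). Nodules exceeded inflamed livers by 1460 bp, within the spread between animals (exact permutation test, two-sided, p = 0.714, adjusted p = 1), where 4.68% of tiles were higher, by 5290 bp with equal lists (exact permutation test, two-sided, p = 0.151) and by 5195 bp with the better-scoring 50% of each list. The direction rested on the nodule 125279, without which the difference was -947 bp (exact permutation test, two-sided, p = 0.667), and in mean ranks it was -0.2. Without WT 130748 and HCC 124711, the difference from WT livers was 5282 bp for inflamed livers (exact permutation test, two-sided, p = 0.0317) and 8280 bp for nodules (exact permutation test, two-sided, p = 0.0286).

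WT livers had 1 peak in the Myc window, except 134501 with 2. Inflamed livers had 4, except 149199 with 1, a mean difference of 2.2 peaks (exact permutation test, two-sided, p = 0.0476). With lists of equal length that difference was 0, and without WT 130748 it was 2.15 (exact permutation test, two-sided, p = 0.0794). Of the single animals, leaving out inflamed 149199 alone kept the call. Nodules had 1, 2, 5, 2 and 3 peaks, and neither comparison passed the test (p = 0.127 against WT and 0.508 against inflamed livers, exact permutation tests, two-sided). Without HCC 124711 the difference from WT livers was 1.8 peaks and passed (exact permutation test, two-sided, p = 0.0476). Peak numbers were not tested over the genome, so these calls have no genome-wide share beside them.

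Of the 4 merged regions of the Myc window, none had a peak in all 5 animals of one group and in no animal of another. Nor did either Ccnd1 region. Genome-wide, 6.14% of merged regions had a peak in all 5 inflamed and no WT livers and 0.508% the reverse. For nodules the shares were 0.239% gained and 0.159% lost against WT livers, and 0.110% gained and 1.33% lost against inflamed livers. The central merged region, chr15:61814024-61826565, was occupied in all animals, and its covered length averaged 5382 bp in the WT group, 8274 bp in the inflamed group and 9078 bp in nodules. It held the central stretch and the one 3.43 kb from the centre only because the peak of the nodule 123206 joined them. In inflamed livers its length therefore added separate outer peaks, 1508 bp on average at chr15:61822101-61824762, to the central peak. These limits were kept when animals were left out. The difference between inflamed and WT livers was 2892 bp (exact permutation test, two-sided, p = 0.00794, adjusted p = 0.0498 over 44697 regions), and 15.9% of regions passed an adjusted p of 0.05 in this comparison in either direction. The difference between nodules and WT livers was 3696 bp (exact permutation test, two-sided, p = 0.00794, adjusted p = 0.448), and 0 of 52284 regions passed after adjustment there, while 3.99% were higher and 3.59% lower at an unadjusted p under 0.05. The 3 outer regions had unadjusted p of 0.127 or above in both comparisons with WT livers (exact permutation tests, two-sided). Without HCC 124711 the region chr15:61846950-61852126 passed for nodules against WT livers, at 2733 bp (exact permutation test, two-sided, p = 0.0476). With WT 130748 left out as well it did not, at 2598 bp (exact permutation test, two-sided, p = 0.0857).

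Within its own list, the Myc window ranked among moderately acetylated tiles. On average 67.3% of the tiles of the same animal had less length under peaks in WT livers, 78.6% in inflamed livers and 80.9% in nodules. The ranges were 60.9% to 74.3%, 67.7% to 82.8% and 70.4% to 91.8%, and all pairs of groups overlapped.

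**Figure D5:**
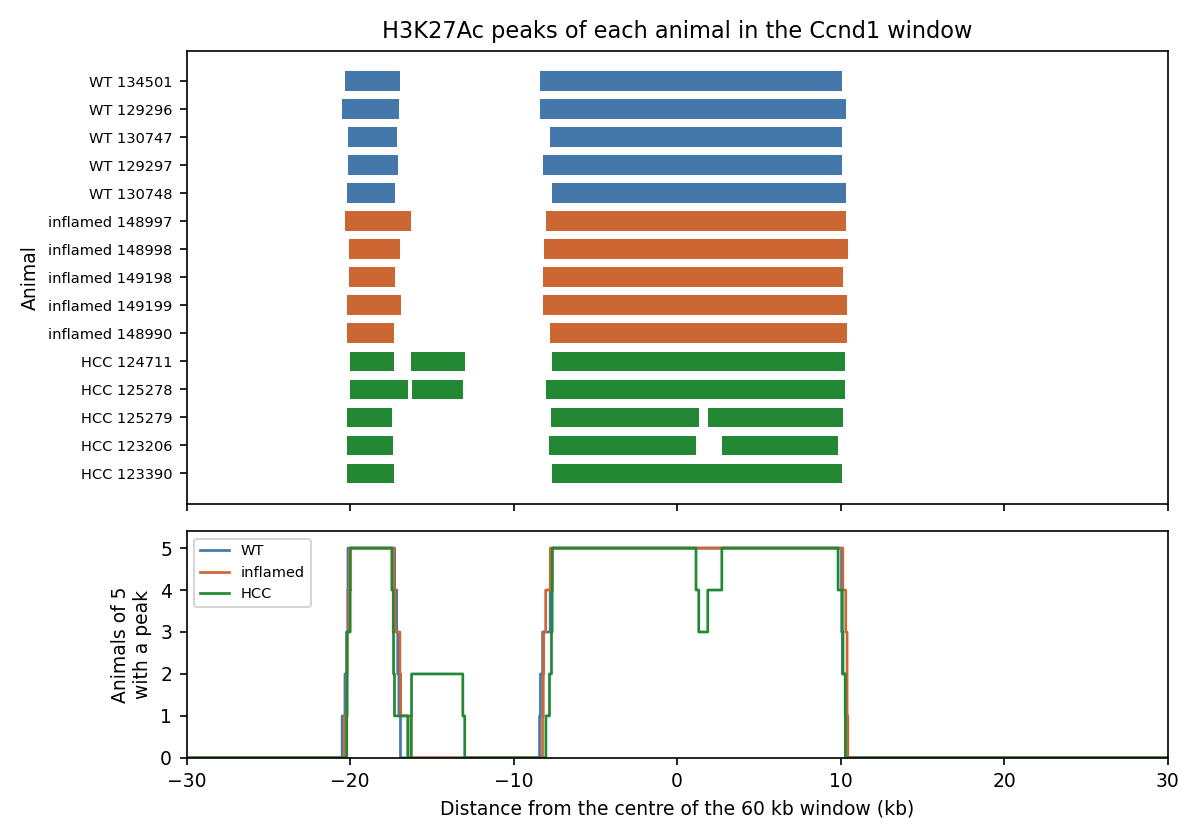
H3K27Ac peaks of each animal in the Ccnd1 window (x axis, distance from the window centre in kb, higher coordinates to the right; each bar is 1 peak) and, below, how many of the 5 animals of each group had a peak at each position. All 15 animals share a narrow region at the left and a broad one at the centre, 2 nodules have a gap in the broad region, and 2 nodules have a further peak beside the narrow one.

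The Ccnd1 window held more acetylation than the Myc window in every animal except the nodule 125279. Its group means lay close together, while nodules spread more widely than livers. In WT livers the length under peaks was 21861 bp in 134501, 22133 bp in 129296, 20849 bp in 130747, 21349 bp in 129297 and 20931 bp in 130748. In inflamed livers it was 22439 bp in 148997, 21737 bp in 148998, 21123 bp in 149198, 21913 bp in 149199 and 21000 bp in 148990. These 2 groups covered nearly the same range. In nodules it was 23933 bp in 124711, 24944 bp in 125278, 20011 bp in 125279, 18911 bp in 123206 and 20573 bp in 123390, so that 2 nodules lay above all livers and 3 below all livers.

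The means were 21425 ± 564 bp for WT, 21642 ± 591 bp for inflamed livers and 21674 ± 2618 bp in nodules (SD, n = 5 each). Differences between means were within the spread between animals, 218 bp for inflamed against WT livers (exact permutation test, two-sided, p = 0.571, adjusted p = 0.745), 32 bp for nodules against inflamed livers (exact permutation test, two-sided, p = 0.984, adjusted p = 1) and 250 bp for nodules against WT livers (exact permutation test, two-sided, p = 0.841, adjusted p = 1). With the better-scoring 50% of each list this changed for nodules against inflamed livers, to -1821 bp (exact permutation test, two-sided, p = 0.0397), and inflamed livers exceeded WT livers by 1523 bp (exact permutation test, two-sided, p = 0.0556). That setting drops the narrow peak, described below, in the WT livers 129296 and 129297 and in the nodule 123390, and additional weak peaks of 3290 bp in the nodule 124711 and 3137 bp in 125278. No base of the Ccnd1 window lay under a peak in all animals of one group and none of another. Such bases were also few genome-wide for nodules, as a share of those under a peak in any of the 10 animals compared. The share was 0.201% in all nodules and no inflamed liver, and 0.984% the reverse. Against WT livers it was 0.217% and 0.188%. For inflamed against WT livers it was 4.36% and 0.929%. Of the 26346 bp under a peak in any animal, 18424 bp were under a peak in all 15. Between 87.7% and 97.2% of the tiles of the same animal had less length under peaks, so the window was among the most acetylated tiles in every group.

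The broad region, chr7:152111585-152130435, spanned most of this length. In WT livers it was a single peak of 18256 ± 328 bp and in inflamed livers a single peak of 18409 ± 203 bp (SD, n = 5 each), which differed by 152 bp (exact permutation test, two-sided, p = 0.405). The other nodules also carried a single peak, of 17934 bp in 124711, 18304 bp in 125278 and 17735 bp in 123390. In 125279 the region was split into peaks of 9007 and 8268 bp by a gap of 551 bp at chr7:152121321-152121871. In 123206 it was split into peaks of 8959 and 7110 bp by a gap of 1579 bp at chr7:152121152-152122730. Both gaps fell at the same place, and the first of them lay inside the second. As a result the longest peak averaged 14388 ± 4938 bp in nodules (SD, n = 5), a difference of -4021 bp from inflamed livers (exact permutation test, two-sided, p = 0.0159) and of -3868 bp from WT livers (exact permutation test, two-sided, p = 0.0635). The groups overlapped, and the genome-wide share of regions passing this test of the longest peak was not computed. Without WT 130748 and HCC 124711 the differences were -4907 bp from inflamed livers (exact permutation test, two-sided, p = 0.0317) and -4821 bp from WT livers (exact permutation test, two-sided, p = 0.0857). The difference from WT livers passed without WT 130747, at -3965 bp (exact permutation test, two-sided, p = 0.0476), or without HCC 125278, at -4847 bp (exact permutation test, two-sided, p = 0.0317), so this call depended on single animals. Without 1 of the split nodules the difference from inflamed livers was -2664 bp (without 123206) or -2676 bp (without 125279), with p = 0.0317 in each exact permutation test. Counted by covered length, the broad region of nodules differed by -945 bp from inflamed livers (exact permutation test, two-sided, p = 0.0159, adjusted p = 0.261), where 9.58% of merged regions were lower by the same unadjusted test. It was -1063 bp without HCC 124711 and -597 bp without HCC 123206 (exact permutation tests, two-sided, p = 0.0317 each).

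The broad Ccnd1 peak was among those tied at 3100 in 13 animals, counting the higher of the split peaks. In the WT liver 129297 it ranked just below the tie, with 83.7% of the list scoring lower. In the nodule 123390 it ranked further below the tie, with 77.7% of the list scoring lower and 22.3% higher. In that list 10.1% of peaks scored 3100 or more. The right part of the split peak in 123206 had 82.3% of the list below it.

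The narrow region on the LTO1 side, chr7:152099514-152107008, was occupied in all 15 animals and covered 3168 bp on average in the WT group, 3234 bp in the inflamed group and 4211 bp in nodules. No comparison exceeded the spread between animals (exact permutation tests, two-sided, p = 0.857 for inflamed against WT, 0.421 for nodules against inflamed and 0.444 for nodules against WT livers). Without WT 130748 and HCC 124711 the narrow region differed by 530 bp for nodules against inflamed livers (exact permutation test, two-sided, p = 0.841) and by 538 bp against WT livers (exact permutation test, two-sided, p = 1). The nodules 124711 and 125278 had an additional peak at chr7:152103719-152107008 and chr7:152103756-152106892. These additional peaks were weak, with 15.5% and 4.52% of the list scoring lower. Below the main peak of the region lay 56.4%, 48.9%, 53.0%, 44.8% and 75.8% of the list in the WT livers 134501, 129296, 130747, 129297 and 130748, so that the library standing apart from its group ranked highest. In inflamed livers between 59.4% and 83.1% of the list scored lower than this peak, in WT livers between 44.8% and 75.8%, and in nodules between 32.4% and 80.9%. These ranges overlapped in all pairs of groups. In WT 130748 and HCC 124711 this peak was among those tied at 3100, where the size of the tie sets the share. By number, 204 and 177 peaks scored higher in these 2 libraries. The number was between 6574 and 14583 in inflamed livers. It was 11500 to 15258 in the other WT livers and 7518 to 19444 in the other nodules.

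The number of Ccnd1 peaks was 2 in all WT and inflamed livers. It was 3 in the nodules 124711, 125278, 125279 and 123206 and 2 in 123390, a mean difference of 0.8 peaks from either group (exact permutation tests, two-sided, p = 0.0476 each). This call did not hold without HCC 124711, where the difference was 0.75 from either group (exact permutation tests, two-sided, p = 0.0952 each), nor with equal lists, where it was 0.6 (exact permutation tests, two-sided, p = 0.167 each). Leaving out any other single animal except the nodule 123390 also ended it. As for Myc, peak numbers were not tested over the genome, so this call has no genome-wide share beside it. The third peak came from the additional weak peak in 124711 and 125278 and from the gap in 125279 and 123206. The nodules 125279 and 123206, with a split Ccnd1 region, were also the nodules with the most length under peaks around Myc, 22410 and 15245 bp. This was seen in 2 animals and was not tested.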

How the data were processed

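H3K27Ac ChIP-seq peaks of 15 mouse livers and nodules were analysed, 1 list per animal, grouped by the sample labels. The authors called peaks per animal, and the deposited lists hold positions and a score from the peak caller, from 50 to 3233.06, whose scale is not stated in the sources used here. The submitters' processing notes name Bowtie 0.12.7, MACS 1.4 and build mm9, and the aligned reads and depth were not used here. The IgG control was not analysed here.

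Peaks on chromosomes 1 to 19 and X entered. Both windows, and the gene list, were chosen with earlier results of these data known. Named genes were Myc and Ccnd1 by window position, and every merged region that overlapped a window by at least 1 bp was described. Covered bp, number of peaks and longest stretch were compared between groups by the difference of means, tested by exact permutation (two-sided, all 252 assignments, p from the smaller tail doubled). Covered bp was also tested in every 60 kb tile and merged region, with Benjamini-Hochberg adjustment over all windows and tiles, or all regions, of a comparison. Scores were compared only as ranks within a list. Peak ends, stretches under peaks in at least 3 animals and ranks by number of better peaks were chosen after the values were seen. Alternatives were equal lists of 26375 peaks, the better 50% of each list, windows wider or narrower by 10 kb on each side, other scales, shifted tiles, ranks, other occupancy rules, and leaving out animals. The scripts were tested on simulated data. Other growth genes, marker genes and tiles resembling the windows were to be looked up in an annotation of mm9, which was not used here. Gene order came from RefSeq for GRCm38, without its coordinates. Python 3.11.15, NumPy 2.4.6, SciPy 1.17.1, pandas 2.3.3 and matplotlib 3.10.9 were used. Nothing in the labels pairs animals across groups, and p-values measure the spread between animals.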

Additional observations from a re-analysis of the deposited data

Results flagged for a closer look

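Within the groups of 5 animals, 6 of 18 sets of values had 1 animal far from the other 4, by the gap to its nearest neighbour as a share of the range. For lengths, chance gives such a gap in about 1 in 20 groups. For peak counts that rate does not hold, since 1 animal differing from 4 tied ones always meets the rule, and 3 of the 6 sets are of this kind. In the Myc window the WT liver 134501 had 7923 bp under peaks and 2 peaks, above the other WT livers, and the inflamed liver 149199 had 6883 bp and 1 peak, below the other inflamed livers. The nodule 123206 had a longest Myc peak of 12194 bp, above the other nodules. In the Ccnd1 window the nodule 123390 had 2 peaks where the other 4 nodules had 3. Covered bp and peak number of the same window are measured on the same peaks, so these sets are not independent. The causes were not tested.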

How the results depend on the processing

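The lists hold no read counts, so the part of depth could not be measured, and with 5 animals against 5 no p below 0.00794 was possible. No paired analysis was possible because animals of different groups share no numbers. Shorter lists and other windows could not change the central Myc peak, which is among the strongest of each list, and between groups that do not overlap leaving out an animal gives the smallest p possible, so these settings are no check of its length. Without 1 animal at a time it was 1334 to 1428 bp longer in inflamed livers and 1312 to 2888 bp longer in nodules. With equal lists, inflamed minus WT was 1338 bp covered (exact permutation test, p = 0.0556) and 0 peaks for Myc, nodules minus inflamed 1.2 Myc peaks, -595 bp and 0.6 peaks for Ccnd1, and nodules minus WT -378 bp and 0.6 peaks for Ccnd1. With the better 50% of each list, inflamed minus WT was 1383 bp covered (exact permutation test, p = 0.00794) and 0 peaks for Myc and 1523 bp for Ccnd1 (exact permutation test, p = 0.0556), nodules minus inflamed 1.2 Myc peaks, -1821 bp (exact permutation test, p = 0.0397) and 0.2 peaks for Ccnd1, and nodules minus WT -298 bp and 0.6 peaks for Ccnd1. With windows wider by 10 kb, Ccnd1 peaks differed by 1 for nodules minus inflamed and 1.2 for nodules minus WT. The called differences in Ccnd1 peaks did not pass under any of these 3 settings (p = 0.127 to 1, exact permutation tests), nor did that of inflamed minus WT in Myc peaks with either shorter list. Per Mb under peaks, Ccnd1 differed by -21.1 bp for inflamed minus WT and -8.22 for nodules minus WT. As percentile among tiles, Ccnd1 differed by -1.80 for nodules minus inflamed and -1.55 for nodules minus WT. In mean rank, nodules minus inflamed was -0.2 for Myc and -1 for Ccnd1, and nodules minus WT -1 for Ccnd1. Counting a region as occupied at 50% coverage, or calling 4 of 5 against at most 1, gave 1 Myc region for inflamed against WT and 1 for nodules against WT, in place of 0. Under the rule of 4 of 5, 15.9% of merged regions genome-wide were called for inflamed livers and 3.30% for nodules. The genome-wide share at 50% coverage was not computed, so that count has no comparison. Leaving out 1 animal at a time gave, for Myc, 2.05 to 2.8 peaks for inflamed minus WT, 0.8 to 1.8 peaks for nodules minus WT, 4506 to 8450 bp covered for nodules minus WT, and -947 to 2997 bp covered and -71.4 to 1504 bp of longest peak for nodules minus inflamed. For Ccnd1 it gave -568 to 941 bp covered, -4847 to -2511 bp of longest peak and 0.75 to 1 peaks for nodules minus WT, and -785 to 723 bp covered, -5000 to -2664 bp of longest peak and 0.75 to 1 peaks for nodules minus inflamed. Bases in all inflamed and no WT livers around Myc came to 1123 to 2280 bp, the highest without inflamed 149199, and in all nodules and no WT liver to 0 to 1087 bp, the highest without HCC 123390. Around Ccnd1, bases in all inflamed livers and no nodule came to 0 to 21 bp and in all WT livers and no nodule to 0 to 11 bp. Chosen after seeing the data, the ends of the central Myc peak and the named regions were also computed without animals. Nodules minus inflamed came to -167 to 1496 bp for the right Myc end, to -340 to 623 bp for the region at 61804911 and to -1103 to 303 bp for that at 61830232, to -1155 to -597 bp for the broad Ccnd1 region, and inflamed minus WT to -149 to 173 bp for the narrow Ccnd1 region. Without WT 130748 and HCC 124711 together, the left Myc end of nodules differed by -338 bp from WT (exact permutation test, p = 0.0286) and -290 bp from inflamed livers (exact permutation test, p = 0.0317), where all animals gave -212 bp (exact permutation test, p = 0.325) and -109 bp (exact permutation test, p = 0.659), and Ccnd1 covered length by -533 bp from inflamed livers and -438 bp from WT. The causes of these changes were not tested.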
